A study of Mus musculus with 8 samples.

Results

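The cluster of miR-221 and miR-222 consists of 2 neighbouring miRNA hairpins on the mouse X chromosome, and each hairpin yields a product from its 5p arm and from its 3p arm. The 4 mature products, mmu-miR-221-3p, mmu-miR-221-5p, mmu-miR-222-3p and mmu-miR-222-5p (written without the species prefix from here), were taken by name from the 1915 mature miRNAs listed in each library, and all 4 were present. Short RNAs of prefrontal cortex were sequenced in C57BL/6 mice aged 12 weeks, with 4 libraries of wild type animals, numbered 1, 2, 3 and 4, and 4 of Fkbp5 knockout animals, numbered 1, 2, 4 and 5. The Fkbp5 protein works with the chaperone Hsp90 and makes the glucocorticoid receptor less responsive to its ligand, and the study asks which cortical miRNAs differ when it is missing. The labels name the genotype without the type of allele, and they give neither the sex of the animals nor whether a library is 1 animal, so p-values measure only the spread between these samples. In units of 1000000, the 8 libraries summed to between 16.2 and 21.6 in the deposited values, which the authors call normalized counts. The neuronal miR-128-3p, miR-9-5p and miR-124-3p were abundant, with mean values of 4479360, 2129270 and 672931 after rescaling.

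Both hairpins are thought to be cut from 1 primary transcript, first by Drosha in the nucleus and then by Dicer in the cytoplasm, after which 1 arm is usually kept in an Argonaute protein (the guide) and the other is lost (the passenger). A guide finds its targets mainly through its seed, bases 2 to 8 from the 5′ end. The 3p products are the known guides here. They are known to repress the cell cycle inhibitor p27 (Cdkn1b) and the receptor Kit, are abundant in blood vessel walls and in proliferating cells, and are induced by growth factors through ERK signalling in neuron-like cells and by NF-kB in inflammation.

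The sequences are shown because the pair shares its seed while differing elsewhere, and because the position of the arms defines what is compared below. They come from RefSeq (GRCm38.p6), which held 3 of the 4 mature products and both hairpins. In the mature products the capitals mark the seed.
miR-221-3p: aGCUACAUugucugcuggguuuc
miR-222-3p: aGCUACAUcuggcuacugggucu
miR-221-5p: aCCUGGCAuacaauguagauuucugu
The 3p products are both 23 bases long and are identical over their first 8 bases, which include the seed GCUACAU. The first difference is U9C (miR-221-3p has U at position 9 from the 5′ end and miR-222-3p has C), and 11 of the 23 positions are identical in all. miR-221-5p is 26 bases long and has another seed, CCUGGCA.

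In the hairpins the capitals mark the mature products held in the RefSeq table.
Mir221: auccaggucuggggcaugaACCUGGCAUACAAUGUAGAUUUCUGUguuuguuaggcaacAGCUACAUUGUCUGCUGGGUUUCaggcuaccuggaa
Mir222: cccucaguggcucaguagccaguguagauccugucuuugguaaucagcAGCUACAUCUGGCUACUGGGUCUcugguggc
Mir222 lies at 19146893 to 19146971 and Mir221 at 19146294 to 19146388 on the minus strand of chromosome X (GRCm38), so that Mir222 comes first in the direction of transcription and 504 bases separate them. No other gene of the GENCODE M21 annotation overlaps the span of the hairpins, so they are intergenic there. The nearest gene is the noncoding Gm14636, 10009 bases upstream on the same strand (19156981 to 19167241), and the nearest protein-coding gene, Tex13c3, is 332448 bases away. Among the other mature miRNAs held by RefSeq, the same seed is found in miR-1928 (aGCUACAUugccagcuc), which is listed at 0 in all 8 libraries. Of the 599 miRNAs tested below, 510 had a sequence there to search.

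The 3p products were among the abundant miRNAs of the cortex and the 5p products were not. Values are deposited values made comparable by a trimmed mean of their log ratios. The 3 products printed above are 23 to 26 bases long, shorter than a read, so products were set side by side without a length term, although the efficiency of adapter ligation may differ between sequences. miR-222-3p had the 31st highest mean of the 1915 names and miR-221-3p the 35th, whereas miR-221-5p was 179th and miR-222-5p 331st. miR-221-3p held 0.254 ± 0.0142% of a library and miR-222-3p 0.291 ± 0.0248% (SD over 8 libraries). All 4 products passed the filter on low values used for testing (a minimum of 10 in 4 or more libraries, relative to the median library total), as did 599 miRNAs in all.

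miR-221-3p had rescaled values of 49640, 45188, 48709 and 41761 in wild type replicates 1, 2, 3 and 4, and of 53107, 47400, 50653 and 45283 in knockout replicates 1, 2, 4 and 5. The genotypes overlapped, the lowest library being wild type replicate 4 and the highest knockout replicate 1. miR-222-3p, with the same seed, had values of 55041, 52217, 61612 and 44865 in the wild type and 61735, 53642, 53832 and 54935 in the knockout. The same libraries were lowest and highest, but wild type replicate 3 was almost as high as knockout replicate 1, and the other 3 knockout libraries lay within a narrow band.

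The passenger products were lower by more than an order of magnitude. miR-221-5p had values of 1639, 1456, 1710 and 1041 in the wild type and 1756, 1262, 1471 and 1410 in the knockout. It was again lowest in wild type replicate 4 and highest in knockout replicate 1, with a highest value 1.69 times the lowest. miR-222-5p, the rarest of the 4, had values of 197, 156, 172 and 141 in the wild type and 147, 141, 148 and 176 in the knockout. Its highest value was in wild type replicate 1, and knockout replicate 1 was not high for it.

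**Figure D1:**
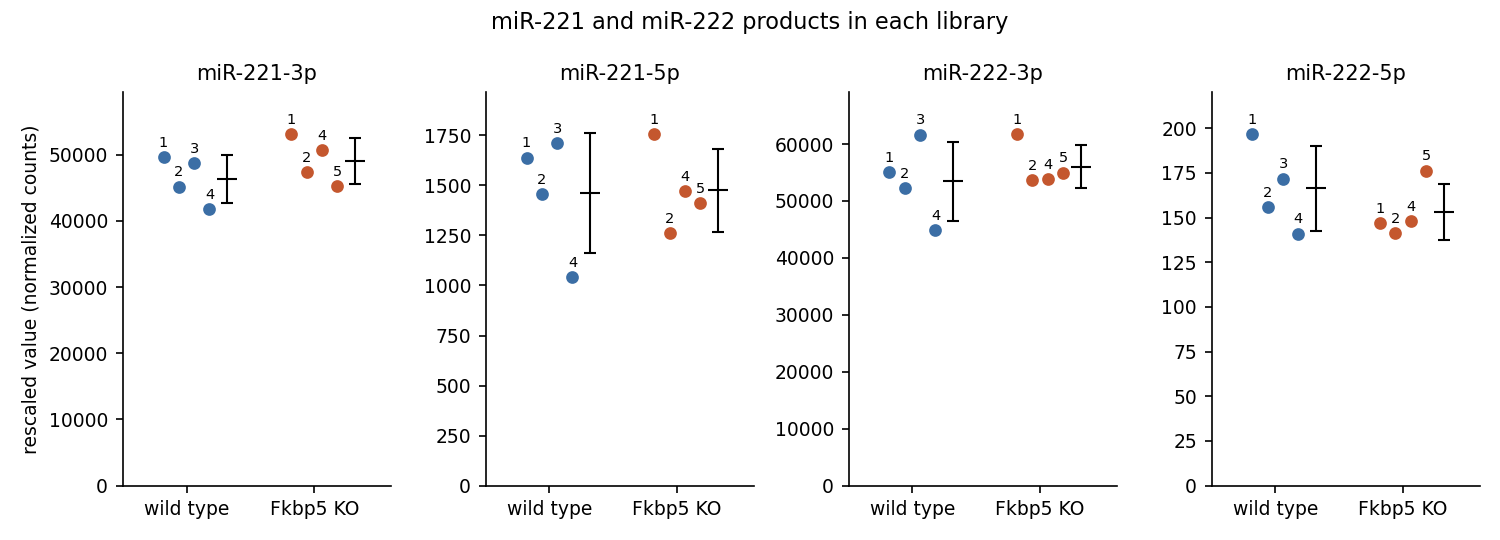
Rescaled values (normalized counts, linear axis from 0) of the 4 products in each library, with the replicate number above each point and the mean ± SD beside each group (n = 4 each). The genotypes overlap for all 4 products, and wild type replicate 4 is the lowest library in each panel.

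Among the 599 miRNAs, miR-221-3p was one of the steadier, although these span all levels and no comparison at like abundance was made. Its SD within genotypes was 0.108 on the log2 scale, at the 5.34th percentile of all tested miRNAs, whose median was 0.254. For miR-222-3p the SD was 0.151 (15.4th percentile), for miR-222-5p 0.175 (23.5th) and for miR-221-5p 0.269 (54.1st).

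The 3p product was in excess over the 5p product in both hairpins, to a degree that differed between them. Products of different sequence may also differ in adapter ligation, whose part in these ratios was not tested. For miR-221 the 3p product was 30.3, 31.0, 28.5 and 40.1 times the 5p product in wild type replicates 1 to 4, and 30.2, 37.6, 34.4 and 32.1 times in knockout replicates 1, 2, 4 and 5. The high wild type value belongs to replicate 4, where miR-221-5p was lowest. For miR-222 the ratio was 279.8, 335, 358.5 and 318 in the wild type and 420.01, 380, 363 and 312 in the knockout. Its lowest value was in wild type replicate 1 and its highest in knockout replicate 1, which stand at the ends of each genotype.

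The 5p arm thus made up 2.43 to 3.39% of the miR-221 product and 0.238 to 0.356% of the miR-222 product. The 3p excess of miR-222 was larger than that of miR-221 in 8 of 8 libraries, by 7.90-fold to 13.8-fold, with a mean log2 difference of 3.38 ± 0.25 (SD, n = 8). This difference lay in the 5p arms. miR-221-5p was 7.38 to 11.9 times as high as miR-222-5p, whereas the 3p products differed little. Of the 141 hairpins whose arms each had a mean value of 20 or more, the 3p arm was above the 5p arm in 64 and below it in 77. In order of 3p excess, miR-222 was 6th and miR-221 18th. The median ratio of the major to the minor arm over these hairpins was 10.3, in whichever direction.

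**Figure D2:**
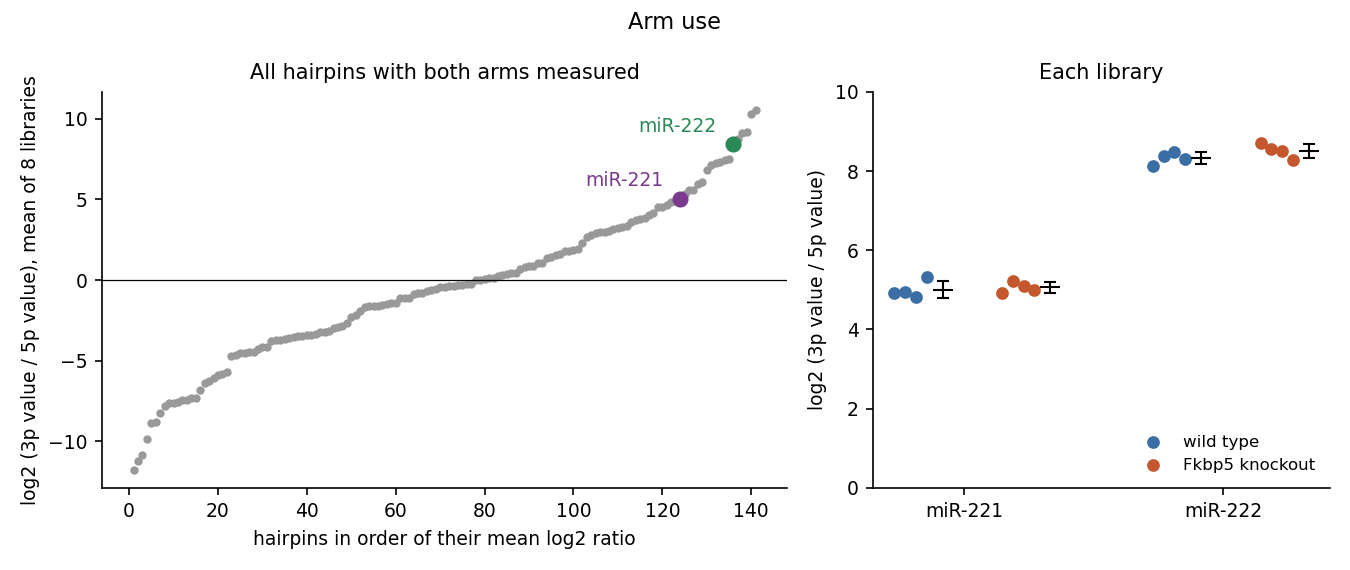
Left, mean log2 of the 3p product over the 5p product for 141 hairpins in rising order, with miR-221 and miR-222 in colour; right, the ratio of these 2 hairpins in each library with the mean ± SD (n = 4 per genotype). Both lie on the 3p side, miR-222 above miR-221 in every library.

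The arm ratios did not separate the genotypes. The log2 ratio of 3p to 5p averaged 5.01 ± 0.22 in the wild type and 5.06 ± 0.13 in the knockout for miR-221 (SD, n = 4 each), a difference of 0.06 ± 0.17 (SE; adjusted p = 0.973 by limma over 141 hairpins). For miR-222 it averaged 8.32 ± 0.15 and 8.51 ± 0.18, a difference of 0.19 ± 0.16 (adjusted p = 0.973 by limma). Over all hairpins 0% passed the adjusted threshold of 0.05 and 2.13% had an unadjusted p under 0.05 (3 hairpins), and neither miR-221 nor miR-222 was among those. Those 3 became 7, 8 and 7 without wild type replicates 2, 3 and 4 and 1 without knockout replicate 2. The genotypes overlapped for both hairpins, while they did not for 0.709% of all hairpins (1). The 95% interval of the genotype difference in the miR-222 ratio ran from 0.890-fold to 1.46-fold. For miR-221 it ran from 0.807-fold to 1.34-fold.

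The balance between the guides was close to even and steady. miR-222-3p was 1.11, 1.16, 1.26 and 1.07 times miR-221-3p in wild type replicates 1 to 4, and 1.16, 1.13, 1.06 and 1.21 times in knockout replicates 1, 2, 4 and 5. It was above miR-221-3p in 8 of 8 libraries. The mean ratio was 1.15 ± 0.0830 in the wild type and 1.14 ± 0.0629 in the knockout (mean ± SD, n = 4 each), and the log2 difference of -0.00944 between genotypes had a two-sided exact permutation p of 0.914 over 70 arrangements, whose smallest possible p is 0.0286. For the passengers, the ratio of miR-221-5p to miR-222-5p was 8.75 ± 1.13 and 9.70 ± 1.69 (two-sided exact permutation p = 0.429).

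The guides rose and fell together over the libraries, and so did both guides with miR-221-5p. On log2 rescaled values over 8 libraries, miR-221-3p and miR-222-3p had a Pearson r of 0.812 (exact permutation p = 0.0196, adjusted p = 0.0392 over the 6 pairs of products) and a Spearman rho of 0.786 (exact p = 0.0279, adjusted p = 0.0559). The arms of miR-221 gave an r of like size: miR-221-3p and miR-221-5p had an r of 0.826 (exact p = 0.0119, adjusted p = 0.0356) and a rho of 0.810 (exact p = 0.0218, adjusted p = 0.0559). The highest correlation was between products of different hairpins, miR-222-3p and miR-221-5p, with an r of 0.916 (exact p = 0.00191, adjusted p = 0.0115) and a rho of 0.881 (exact p = 0.00724, adjusted p = 0.0435).

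These relations rest on the libraries at the ends. Wild type replicate 4 and knockout replicate 1 lay farthest from the median of miR-221-3p and of miR-221-5p. Without them, r fell to 0.301 for the guides (exact permutation p = 0.658, 6 libraries), to 0.430 for the arms of miR-221 (exact permutation p = 0.410) and to 0.684 for miR-222-3p with miR-221-5p (exact permutation p = 0.132). Taken as deviations from the genotype means, the r values were 0.797, 0.881 and 0.938. The adjusted p of the guides also rose above 0.05 when any of wild type replicates 1, 2 and 4 or knockout replicates 1 and 2 was left out (0.0544 to 0.327, exact permutation tests on 7 libraries). Of these, r stayed as large without wild type replicate 1 (0.824), wild type replicate 2 (0.807) or knockout replicate 2 (0.812), and was lower without knockout replicate 1 (0.739) and wild type replicate 4 (0.599). That of the arms of miR-221 did so without wild type replicate 1 or 4 or knockout replicate 1 (adjusted p = 0.0544, 0.327 and 0.108, with r of 0.816, 0.632 and 0.777), and with upper quartile scaling (adjusted p = 0.0708, r = 0.736). miR-222-3p with miR-221-5p lost its call without wild type replicate 4 (r = 0.787, adjusted p = 0.186).

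miR-222-5p had no correlation past the threshold with any of the others. Its r was 0.152 with miR-221-3p, 0.347 with its own guide miR-222-3p and 0.520 with miR-221-5p, with rho of 0.190, 0.476 and 0.429, and their adjusted p values ran from 0.285 to 0.718 for r and from 0.359 to 0.665 for rho (exact permutation tests). Without the libraries farthest on the first product of each pair, which were again wild type replicate 4 and knockout replicate 1, the r values were 0.0714, 0.392 and 0.703. In the values as deposited, without rescaling, its r was 0.764, 0.783 and 0.723, and all 6 pairs passed. Differences in library total are not removed from such values, and their part in these r values was not tested. The deposited values of miR-222-5p were low, from 128 to 212.

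**Figure D3:**
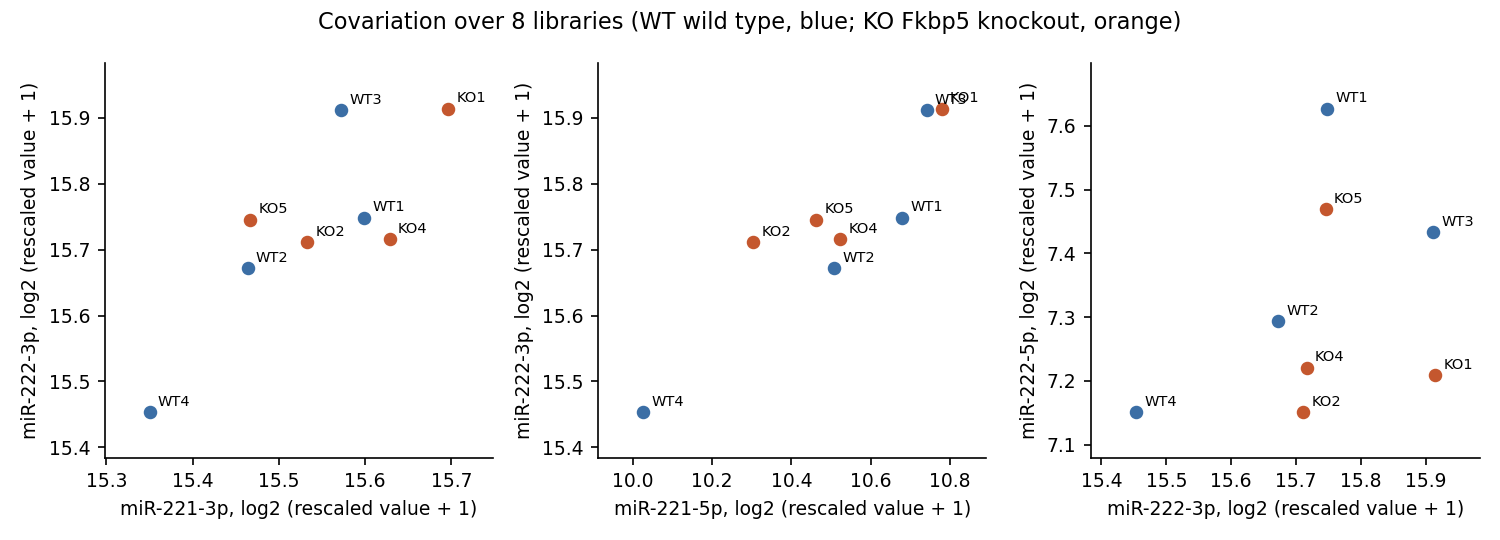
Log2 (rescaled value + 1) of miR-222-3p against miR-221-3p, miR-222-3p against miR-221-5p and miR-222-5p against miR-222-3p; each point is 1 of 8 libraries, named by genotype and replicate. In the first 2 panels wild type replicate 4 is at the lower left and knockout replicate 1 at the upper right. In the third the relation is weaker and did not pass the threshold (r = 0.347, rho = 0.476).

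Other neighbouring hairpins give a scale for this. Each hairpin was represented by the most abundant of its tested products that RefSeq held and placed in no other hairpin. Where RefSeq held no such entry for the major arm, the minor arm stood in. Examples are miR-23b-5p (mean 49.3) and miR-487b-5p (mean 21.6), whose hairpins had a mean log2 ratio of 3p to 5p of 9.17 and 10.3. In all, 317 pairs lay on 1 strand no more than 10000 bases apart. These pairs share libraries and often a hairpin, most lie on chromosome 12, which holds the imprinted Dlk1-Dio3 cluster, and their values are given as a description. Their median r over 8 libraries was 0.119, and 14 of the 317, the guides of miR-221 and miR-222 included, had an r of at least 0.812. The SD over libraries of the log2 ratio was 0.0851 for the guides against a median of 0.281, and 2 pairs, this one included, were at or under it. The other was miR-300-3p with miR-381-3p on chromosome 12 (SD 0.0411). Among the 92 pairs in which both products had a mean of at least 1000, the median SD was 0.243 and the median r 0.125, and the same 2 pairs had an SD of at most 0.0851. miR-379-5p with miR-411-5p came close, with an SD of 0.0891. An r of at least 0.812 was found in 5 of the 92, the guides included. No comparison at closer abundance was made.

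**Figure D4:**
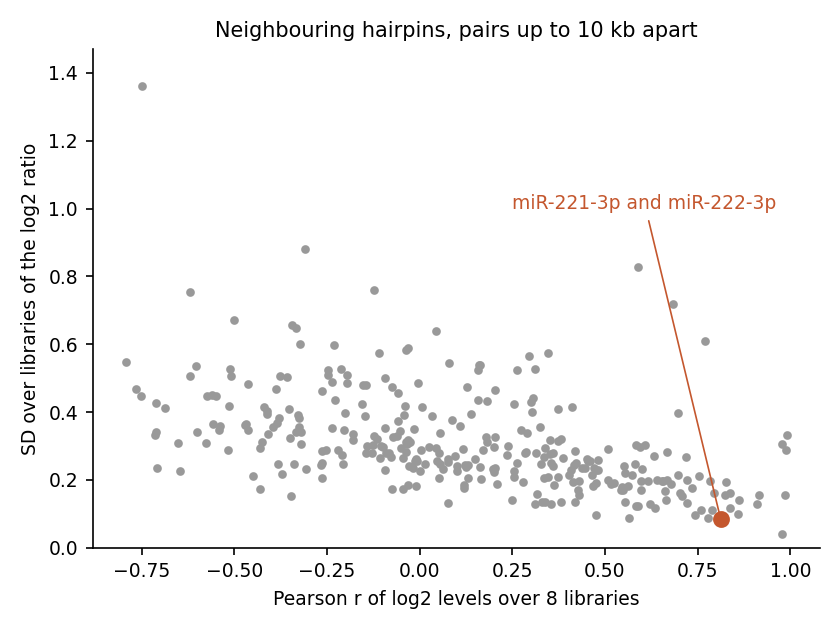
SD over 8 libraries of the log2 ratio (vertical) against the Pearson r of log2 levels (horizontal) for 317 pairs of neighbouring hairpins; each point is a pair, and the orange point is miR-221-3p with miR-222-3p. It lies at the lower right, with an SD of 0.0851 and an r of 0.812.

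Outside the cluster, several miRNAs had an r with the guides as high as the cluster's own products did. The likeness given is Pearson's r of log2 rescaled values over the 8 libraries, with no test. The miRNAs named were picked as the highest of the 599 tested, so a high r comes with the choice. Some had low levels, with means of 10.5 for miR-100-3p, 44.9 for miR-1941-3p, 44.7 for miR-185-3p and 69.4 for miR-491-5p. For miR-221-3p the 5 most alike were miR-409-5p (0.959), from the imprinted Dlk1-Dio3 region on chromosome 12, miR-1941-3p (0.888), miR-29b-1-5p (0.872), miR-320-3p (0.859) and miR-100-3p (0.846). miR-221-5p came 6th and miR-222-3p 7th in that order, and miR-222-5p was 205th. For miR-222-3p they were miR-423-5p (0.924), miR-30c-5p (0.902), miR-491-5p (0.898), miR-185-3p (0.897) and miR-212-5p (0.881), the last from a hairpin induced by CREB. In that order miR-221-5p was 2nd, miR-221-3p 11th and miR-222-5p 120th. None of the 5 nearest to one guide was among the 5 nearest to the other.

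None of the 4 products differed between genotypes beyond the spread of the libraries, and their rescaled values overlapped, while those of 2% of all miRNAs (12) did not. In limma, with Benjamini-Hochberg adjustment over all 599 miRNAs, 0 of the 4 passed 0.05, and over all miRNAs 0% passed. At an unadjusted p under 0.05 the count was 0 of 4, against 4.17% of all miRNAs (25). All fold changes are knockout minus wild type on the log2(value + 1) scale. miR-221-3p averaged 46324 ± 3596 in the wild type and 49111 ± 3461 in the knockout (mean ± SD, n = 4 each), with a log2 fold change of 0.08 ± 0.10 (SE; adjusted p = 0.999 by limma). miR-222-3p averaged 53434 ± 6937 and 56036 ± 3842, with a log2 fold change of 0.08 ± 0.11 (adjusted p = 0.999 by limma). In tissue of many cell types, fewer cells of a kind and less RNA per cell cannot be told apart in such values.

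The passengers gave 0.03 ± 0.17 for miR-221-5p (1461 ± 300.1 in the wild type and 1475 ± 207 in the knockout) and -0.11 ± 0.15 for miR-222-5p (166 ± 23.8 and 153 ± 15.7), with adjusted p of 0.999 each by limma. The sign of a product was partly set by 1 library. Without wild type replicate 4 the log2 fold change was -0.01 for miR-222-3p, -0.13 for miR-221-5p and 0.03 for miR-221-3p, and without knockout replicate 1 that of miR-221-5p was -0.06. Over all 599 miRNAs the median absolute log2 fold change was 0.11, and 370 differed by at least as much as miR-221-3p.

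The intervals limit what could have been missed. The 95% interval of the fold change ran from 0.916 to 1.23 for miR-221-3p and from 0.891 to 1.25 for miR-222-3p. It ran from 0.790 to 1.32 for miR-221-5p and from 0.733 to 1.17 for miR-222-5p. A rise of 1.5-fold lay above the upper bound for each of the 4.

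**Figure D5:**
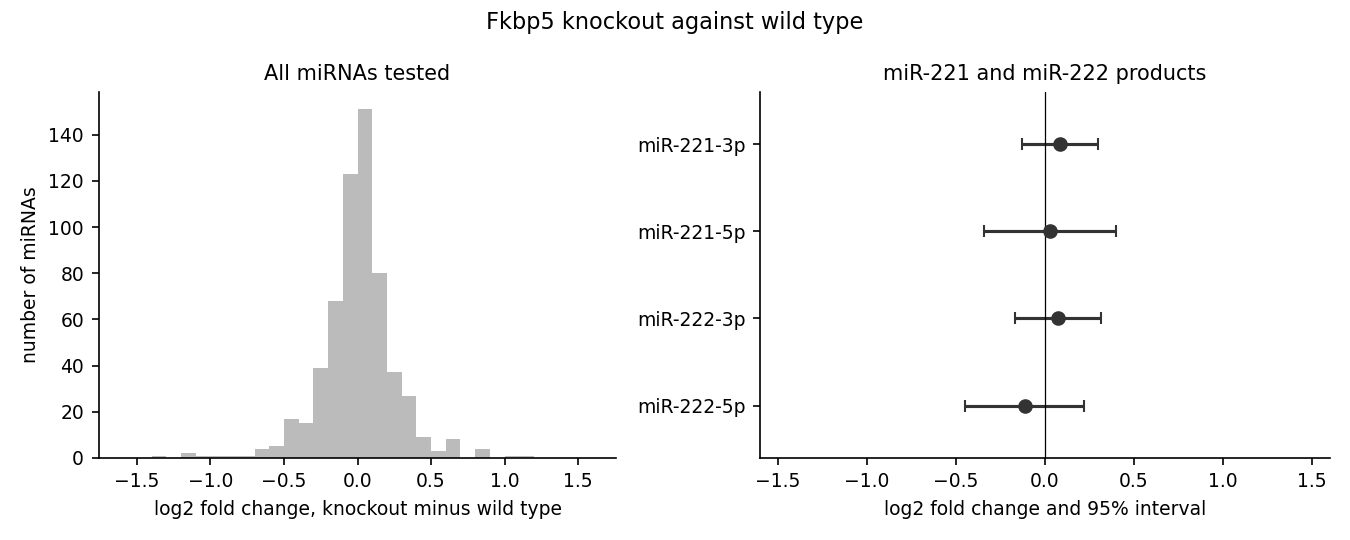
Left, number of miRNAs by log2 fold change (Fkbp5 knockout minus wild type) for the 599 tested; right, the log2 fold change of the 4 products (points) with 95% intervals (bars). All 4 intervals include 0 and lie between -0.45 and 0.40.

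As a share of the library total, miR-221-3p did not overlap between genotypes. It held 0.249, 0.254, 0.252 and 0.224% in wild type replicates 1 to 4 and 0.261, 0.257, 0.273 and 0.260% in knockout replicates 1, 2, 4 and 5. Each knockout library was above each wild type library, which held for 1.17% of the 599 miRNAs (7), and 2% did not overlap in either direction (12). With scaling by library total alone the log2 fold change was 0.10 ± 0.09 (adjusted p = 0.998 by limma), so the call was the same, and this share was singled out after its values were seen. For the 4 products summed, the share was 0.536 ± 0.0474% in the wild type and 0.571 ± 0.0123% in the knockout (two-sided exact permutation p = 0.2, adjusted p = 0.8 over 4 library measures), and wild type replicate 4 was the lowest at 0.471%.

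On the X chromosome the guides stood first. Of the 58 tested miRNAs whose hairpins lie only there, miR-222-3p and miR-221-3p had the highest means, at 54735 and 47717. Next came miR-98-5p of the let-7 family at 17770 and miR-384-5p at 8818. The 58 were found by RefSeq name, so they leave out miR-222-5p and some arms of other X-linked hairpins, such as miR-532-5p, miR-676-5p and miR-1264-5p. Of the arms left out, only miR-222-5p was added to the X-linked sum for the next share, which is therefore a share of this partial sum. The 4 products made up 58.1 ± 3.09% of that sum in the wild type and 58.9 ± 2.09% in the knockout (two-sided exact permutation p = 0.629, adjusted p = 0.943). Of the other 55 X-linked miRNAs, 30 had a higher and 25 a lower mean log2 value in the knockout, 0 passed, and their median log2 fold change was 0.02, beside 0.01 over all 599 (321 higher and 278 lower). The higher ones include miR-465a-3p, miR-465b-3p and miR-465c-3p, which have identical values (mean 10.5) and so are not separate observations. At an unadjusted p under 0.05 in limma there were 3 of the 55, against 4.17% of all miRNAs (25). They were lower: miR-224-5p (-0.70 ± 0.23), miR-542-3p (-0.55 ± 0.18) and miR-322-3p (-0.32 ± 0.12). miR-98-5p was at 0.01 ± 0.11 and miR-384-5p at 0.03 ± 0.14.

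MicroRNAs listed under the signals known to induce the cluster, or under its known targets, gave no call either. Of 6 listed under ERK or CREB, not all of them known to be induced by either, 5 had higher mean log2 values and 1 lower, 0 passed, and the median was 0.06. They include both arms of the CREB-induced hairpins, miR-132-3p (0.08 ± 0.12), miR-132-5p (0.10 ± 0.12), miR-212-3p (0.05 ± 0.12) and miR-212-5p (0.06 ± 0.13), miR-134-5p, which limits dendritic spine growth (0.01 ± 0.17), and miR-21a-5p (-0.16 ± 0.11). Of 6 tied to NF-kB and inflammation 5 were tested, with 1 higher, 4 lower, 0 passing and a median of -0.04. miR-146a-5p, which dampens NF-kB signalling, was at -0.44 ± 0.26, miR-146b-5p at -0.03 ± 0.16, miR-155-5p at 0.14 ± 0.16 and miR-9-5p at -0.04 ± 0.09, while miR-147-3p was too low to test. The lists overlap: miR-21a-5p, given above, is counted here too. Below, miR-155-5p is counted again among the microglia and leukocyte miRNAs and miR-9-5p among the neuronal ones. Of 5 that share a link to p27, Kit or growth control 4 were tested, with 2 higher, 2 lower and 0 passing (median -0.12): miR-24-3p at 0.03 ± 0.10, miR-34a-5p at 0.16 ± 0.14, miR-148a-3p at -0.26 ± 0.16 and miR-152-3p at -0.33 ± 0.12. miR-193a-3p was too low to test.

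Markers of other cells that a cortical sample holds gave no call. For all 5 miRNAs of endothelium and smooth muscle the mean log2 value was lower in the knockout, 0 passed, and the median was -0.12, with miR-143-3p at -0.42 ± 0.16, miR-145a-3p at -0.24 ± 0.12, miR-126a-5p at -0.12 ± 0.16, miR-145a-5p at -0.08 ± 0.22 and miR-126a-3p at -0.07 ± 0.11. Their summed level ran from 76709 to 102295 in the wild type and from 56314 to 86386 in the knockout. Most of this sum was miR-143-3p (mean 53816). The 5 microglia and leukocyte miRNAs had 3 higher and 2 lower (median 0.01, 0 passed), with sums of 8801 to 10691 and 9239 to 13167. Most of that sum was miR-150-5p (mean 9973), at 0.17 ± 0.14, so the sum does not stand for the group. miR-155-5p was at 0.14 ± 0.16 and miR-142a-3p at 0.01 ± 0.23, while miR-142a-5p was at -0.37 ± 0.17 and miR-223-3p at -0.35 ± 0.29. Red blood cell miRNAs (3, median -0.11) and the 3 neuronal miRNAs (median -0.02) each had 1 higher and 2 lower and gave 0 calls. The 2 oligodendrocyte miRNAs were lower (median -0.41, 0 calls), miR-219a-5p at -0.60 ± 0.21 (mean 34.4) and miR-338-3p at -0.22 ± 0.13. All 3 olfactory and epithelial miRNAs were lower with a wide spread (median -0.96, 0 calls). These were miR-200b-3p at -1.18 ± 0.67, miR-200a-3p at -0.96 ± 0.75 and miR-183-5p at -0.82 ± 0.48. What part such cells have in the levels of the cluster was not tested.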

How the data were processed

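Per the labels' protocols, RNA from dissected prefrontal cortex was enriched for short RNA on columns, made into libraries with a NEXTflex small RNA kit, selected by size on a gel and sequenced on an Illumina instrument. The submitters' processing notes name cutadapt 1.11, Bowtie 1.1.2, HTSeq 0.6.1p1 and edgeR with build mm10, with no order or settings. Per the file headers the deposited values are normalized counts, and they were handled as a score of no fixed unit. They are whole numbers whose totals differ between libraries, so the header and the values point different ways. Count models, which need raw counts, were not run, and depth in reads is unknown, so no counting intervals are given.

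Values were divided by factors from a trimmed mean of log ratios (30% of ratios and 5% of levels trimmed at each end; factors 0.838 to 1.21). log2(value + 1) of 599 miRNAs was then tested for genotype (limma 3.58.1, R 4.3.3) with a mean-variance trend. Log2 ratios of 3p to 5p (0.5 added to each) were compared over 141 hairpins, and single ratios by exact permutation. The limma procedures were tested on simulated data, where recovery was required only of 4-fold changes. It therefore says little on differences as small as those of the products here. Named miRNAs are the 4 products, the 5 most alike to each guide, those sharing a seed, the 4 highest X-linked miRNAs and the members of short lists. The products and lists were chosen with earlier results of these data known. Of the names in the files, 1623 had a RefSeq sequence, which limits the X-linked and neighbour lists. Other scalings, filters, pseudocounts, a replicate block and omission of each library were tried.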

Additional observations from a re-analysis of the deposited data

Results flagged for a closer look

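A library far from the other 3 of its genotype was found in 6 of 104 groups of 4 libraries examined, where chance gives 5.2 (about 1 in 20 groups). Rescaled values are given. Of the cluster, knockout replicate 1 stood apart for miR-222-3p, at 61735 with the others between 53642 and 54935. This is the library that was highest for miR-221-3p and miR-221-5p too, and without it the correlation of the guides was 0.739.

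The other 5 were among the comparison miRNAs. Knockout replicate 5 was high for miR-146a-5p (2556, the others 1932 to 1952) and for the olfactory and epithelial miRNAs miR-200b-3p (1130, the others 173 to 322), miR-200a-3p (331, the others 34.8 to 77.0) and miR-183-5p (2161, the others 357 to 566). Knockout replicate 2 was low for miR-146b-5p (11962, the others 14054 to 14413). For miR-221-3p and miR-222-3p, knockout replicates 5 and 2 lay within the range of the other libraries.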

How the results depend on the processing

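No product, arm ratio or guide ratio passed its threshold under any alternative run, and miR-221-3p (0.03 to 0.16), miR-222-5p (-0.20 to -0.03) and the miR-222 arm ratio (0.12 to 0.32) kept their sign. The others are near 0 and changed it when 1 library was left out: miR-221-5p ran from -0.13 (without wild type replicate 4) to 0.12, with -0.06 without knockout replicate 1, miR-222-3p from -0.012 (without wild type replicate 4) to 0.15, and the miR-221 arm ratio from -0.0026 to 0.16. The difference in log2 ratio of miR-221-3p to miR-222-3p, 0.00944, ran from -0.0369 (without wild type replicate 3) to 0.0416, with -0.0248 without knockout replicate 4. The 3 of 6 product pairs that passed for r became 6 in the values as deposited and 0 without the 2 libraries farthest on the x axis. Leaving out single libraries gave 0 to 3, the 0 coming from wild type replicate 4 and a 1 from wild type replicate 1 and knockout replicate 1. For the guides r was then 0.599 to 0.879, and 0.301 without the 2 farthest. That of miR-221-3p with miR-222-5p ran from -0.185 to 0.384 in this way, with -0.0125 when wild type replicate 1 was missing. Of all miRNAs, 0 passed with each library left out, under each scaling, filter and pseudocount; unadjusted, the 25 became 9 in the values as deposited, 51 without a filter, 14 at 10 per 1000000, where miR-222-5p was not tested, and 18 to 39 with single libraries left out (39 without wild type replicate 3).

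Same-numbered libraries (1, 2 and 4) had correlations of 0.0652, -0.0385 and 0.132 between deviations, and each was closest to a library of another number, so the numbers are not taken as pairs. A replicate block gave 3 miRNAs (43 unadjusted, against 39 in the same 6 libraries unblocked) and 1 arm ratio past the threshold, none of the cluster, and a guide ratio difference of -0.00749. Their cause was not tested. Count models were left out, since the headers call the values normalized.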
